A study of Oryza sativa with 6 samples.

Results

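The regions described here were the H3K27me3 peaks of rice seedlings that shared at least 1 bp with an H3K9ac peak and at least 1 bp with an H3K4ac peak. They numbered 2078 of the 12959 H3K27me3 peaks, or 16% (95% Wilson interval 15.4% to 16.7%), and are called doubly acetylated H3K27me3 peaks below. They were chosen by the listed positions of the H3K27me3, H3K9ac and H3K4ac peaks, so their number is a property of the choice and carries no test. With a score of at least 100 required in every list, 692 were left. The other H3K27me3 peaks fell into 1134 that met H3K9ac only, 775 that met H3K4ac only and 8972 that met neither mark.

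The study mapped 6 histone marks by ChIP-seq, in which DNA bound to a modified histone is pulled down with an antibody and sequenced. The material was seedlings of the cultivar Nipponbare, 2 weeks old and raised in a greenhouse. The labels give leaves as the source and seedling as the tissue, and name no treatment. Each of H3K27me3, H3K9ac, H3K4ac, H3K27ac, H3K9me1 and H3K9me3 was represented by 1 library, deposited as a list of peaks with a position and a score, 82347 peaks over the 6 marks.

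H3K27me3 is trimethylation of lysine 27 of histone H3, placed in plants by Polycomb repressive complex 2 and known for genes held silent in a tissue or stage. H3K9ac, H3K4ac and H3K27ac are acetylations placed by histone acetyltransferases and removed by deacetylases, and are known from the promoters of transcribed genes. Lysine 27 of a single histone H3 can carry either the acetyl or the trimethyl group, not both. A peak list of a leaf sample is summed over many cells, so that marks on the same nucleosome, on different alleles or in different cells cannot be told apart.

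With 1 library a mark, no replicate error exists and no test across samples could be run. The intervals given below cover only the counting of peaks, and peaks of 1 library are not replicates. How deeply each library was sequenced is not known, and a region without a listed peak is only one where no peak was called. The lists held 26693 H3K9ac peaks of median width 888 bp, 25425 H3K4ac peaks of median width 1180 bp and 9309 H3K27ac peaks of median width 989 bp. Scores are those of the peak caller in each library, from 50 upwards, and are ranked only within a list. Where values are given by score or width, the list was divided by it into 10 groups of equal size, numbered from 1 at the lowest. Coordinates are given as listed, in a genome build that the lists do not name.

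Doubly acetylated H3K27me3 peaks had a median width of 1558.5 bp (95% interval 1500 to 1627 bp). Their quartiles were 950.5 and 2730.5 bp, and they ran from 341 to 8868 bp. The median was 1720 bp for the peaks with H3K9ac only, 1657 bp for those with H3K4ac only and 1471 bp (1446 to 1503 bp) for those with neither. The doubly acetylated peaks were therefore close to the whole H3K27me3 list, whose median was 1521 bp. A wider peak has more bases in which to meet another, so the share of peaks chosen was also taken by width. Of the H3K27me3 peaks up to 1 kb wide, 572 or 15.9% met both acetylation marks. The share was 15.1% at over 1 to 2 kb (718 peaks), 15.1% at over 2 to 3 kb (336 peaks) and 19.0% (17.5% to 20.6%) at over 3 kb (452 peaks). The share was thus nearly level over the narrower classes and higher in the widest. In group 10 by width, 4055 to 8978 bp, it was 20.4% (18.3% to 22.6%).

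The median H3K27me3 score was 235 (223 to 250) for the doubly acetylated peaks, against 271 with H3K9ac only, 261 with H3K4ac only and 202 (196 to 208) with neither. By group of H3K27me3 score the share with both marks went from 12.6% (10.9% to 14.5%) in group 1 to 18.3% (16.3% to 20.5%) in group 9 and 17.4% in group 10. Peaks of high H3K27me3 score thus carried both acetylation marks at least as often as weak ones. The score groups were not matched for width. Width and H3K27me3 score went together over the doubly acetylated peaks (Spearman 0.597, Pearson 0.306), though not in those over 3 kb (Spearman −0.348). The part of width in these shares was not tested. Within the doubly acetylated peaks the H3K27me3 score was nearly unrelated to the H3K9ac score of the highest overlapping peak (Spearman −0.067, Pearson −0.041, n = 2078 peaks) and to the H3K4ac score (Spearman −0.062, Pearson −0.044). The H3K9ac and H3K4ac scores of the same regions went together (Spearman 0.691, Pearson 0.845). These correlations are over peaks of the same libraries, which are not independent.

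Acetylation covered a median of 75.7% (71.8% to 78.6%) of a doubly acetylated H3K27me3 peak, counting bases under H3K9ac or H3K4ac. The quartiles were 40.7% and 100%. H3K4ac covered more bases than H3K9ac in 1529 peaks (73.6%) and fewer in 252 (12.1%). H3K4ac peaks were also the wider ones over the whole lists, with a median of 1180 against 888 bp. The median share was 70.9% under H3K4ac, 55.9% under H3K9ac and 53.2% under both at once. Where only a single acetylation mark was listed, it covered less: a median of 40.4% for H3K9ac and 46.7% for H3K4ac.

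The share covered by either mark fell steeply with width. From over 1 kb upwards the length under both marks hardly moved, while that under either mark rose. The median covered share was 100% in peaks up to 1 kb, 82.1% at over 1 to 2 kb, 52.6% at over 2 to 3 kb and 28.8% at over 3 kb. The median length under both marks was 618 bp in the narrowest class, and then 846.5, 852 and 838 bp in the wider ones. Under either mark it was 682.5, 1069, 1221 and 1289.5 bp, from the narrowest to the widest. The length under neither mark took up the rest, with medians of 0, 242, 1136 and 3006 bp. A wide doubly acetylated peak was thus mostly H3K27me3 without listed acetylation, usually with 1 stretch under both marks of about the same size as in a peak of 1 to 2 kb.

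**Figure D1:**
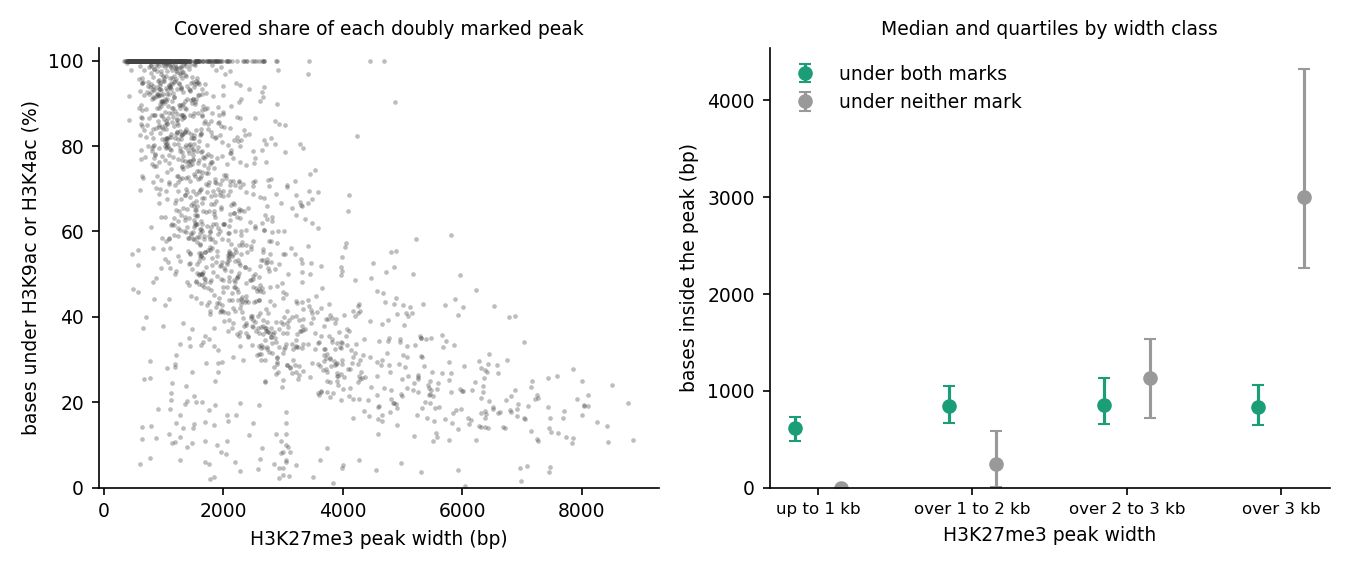
Left, the share of bases (%) under H3K9ac or H3K4ac against the width (bp) of each of the 2078 doubly acetylated H3K27me3 peaks, 1 point a peak; right, the bases (bp) under both marks and under neither by width class, points at the median and bars from the lower to the upper quartile. The length under both marks stayed at 838 to 852 bp in the 3 wider classes, while the length under neither rose to 3006 bp.

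Nearly all of these regions held 1 acetylated stretch. A single covered stretch was found in 1968 peaks (94.7%), 2 stretches in 107 and 3 in 3. Of the peaks over 3 kb, 75 (16.6%) had 2 stretches. Exactly 1 H3K9ac peak and 1 H3K4ac peak met the region in 1968 peaks. The rule let the acetylation marks lie apart. They shared at least 1 base inside the H3K27me3 peak in 2046 cases (98.5%, 97.8% to 98.9%). All 572 peaks up to 1 kb wide were among these, and of the 32 peaks without a shared base 19 were over 3 kb wide. The marks also met widely away from these regions: of the 26693 H3K9ac peaks, 20664 touched H3K4ac and no H3K27me3 peak. Acetylation covered the whole region in 613 peaks (29.5%), of which 421 were up to 1 kb wide and 3 were over 3 kb. At the other end, 46 peaks (2.21%) had under 10% of their bases covered.

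The acetylation lay inside both edges of the H3K27me3 peak in 624 cases (30.0%), ran over 1 edge in 831 (40.0%) and over both edges in 623 (30.0%). These shares turned over with width. In peaks up to 1 kb, acetylation ran over both edges in 72.9% and lay inside in 0.874%. In peaks over 3 kb, it ran over both edges in 1.77% and lay inside in 66.2%. The median widths of the H3K9ac and H3K4ac lists, given above, are near those of the narrower H3K27me3 peaks, which leaves them less room to lie inside.

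The centre base of the region was under acetylation in 1559 peaks (73.1% to 76.8%). By width class this share was 96.9%, 88.0%, 68.2% and 31.9%, from the narrowest to the widest. The middle of the acetylated span fell in the central 50% of the peak in 1694 cases (81.5%, 79.8% to 83.1%). In narrow peaks that position is nearly set by cutting the acetylation at the edges, so the classes were also read apart. The share was 96.9% up to 1 kb, 88.3% and 74.1% in the middle classes and 56.9% over 3 kb. Spans with their middle in the outer 50% were as often towards lower coordinates (195 peaks) as towards higher ones (189 peaks). An arrangement with acetylation over 1 edge and a bare centre was found in 305 peaks (14.7%), and in 127 (28.1%) of those over 3 kb.

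The midpoint of the whole H3K9ac peak, taken without cutting it at the edges, gave a lower figure. It lay in the central 50% of the H3K27me3 peak in 61.6% of cases and outside the H3K27me3 peak in 13.0%. In peaks over 3 kb it was central in 45.4% and in the outer 50% in 44.9%. The corresponding central shares for H3K4ac were 58.8% over all and 47.6% over 3 kb. In the widest class, then, the acetylation peaks were about evenly divided between the central and outer parts.

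The profile from edge to centre showed the same change of shape. In peaks of over 1 to 2 kb, the share of bases under H3K4ac was 53.6% in the outermost 5% of the width and 86.4% at the centre, and the share under H3K9ac was 39.0% and 77.7%. In peaks over 3 kb, H3K4ac went from 20.0% at the edge to 31.3% at the centre and H3K9ac from 14.5% to 24.5%. Outside the H3K27me3 peak, acetylation dropped quickly in every class. In the 250 bp next to a peak of over 3 kb, 12.9% of bases were under H3K4ac, and in the 250 bp that end 3000 bp from the edge the figure was 5.21%. Around peaks up to 1 kb it was 66.6% next to the edge and 4.73% at the same distance.

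**Figure D2:**
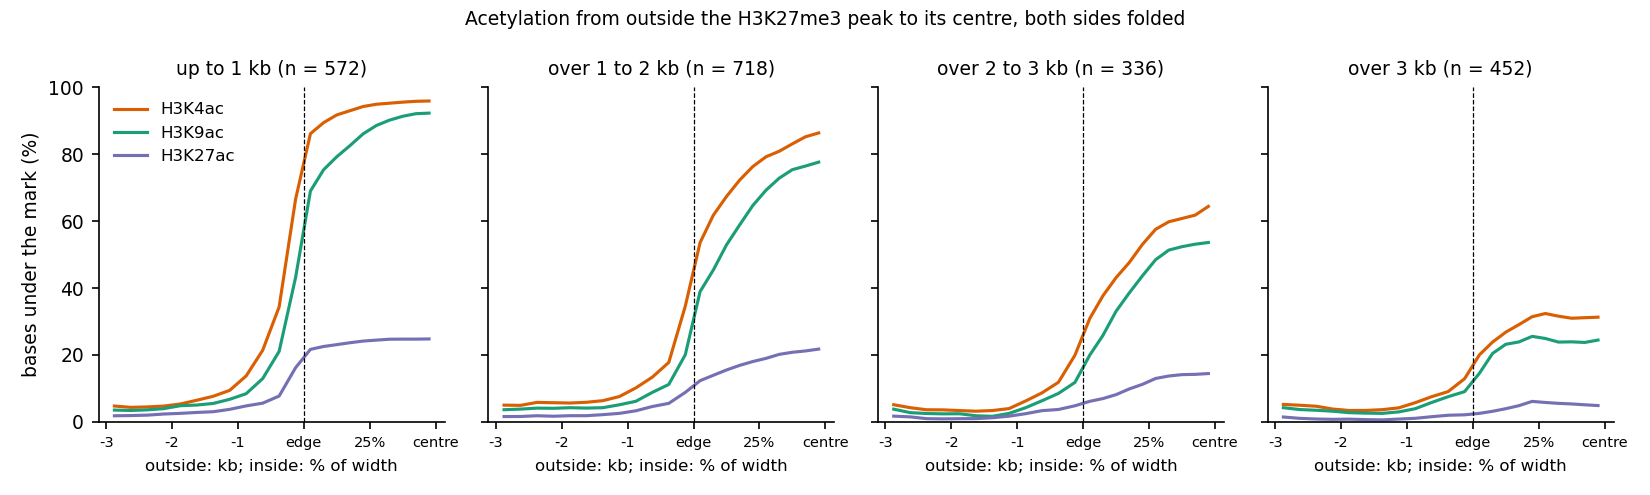
Share of bases (%) under H3K4ac, H3K9ac and H3K27ac, from 3 kb outside a doubly acetylated H3K27me3 peak (kb) to its centre (% of the width), both sides folded together, in 4 width classes. Coverage was highest at the centre in the 3 narrower classes, as with H3K4ac at 86.4% in peaks of over 1 to 2 kb, whereas in peaks over 3 kb H3K4ac went from 20.0% at the edge to 32.4% within the outer 30% of the width on each side and ended at 31.3%.

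H3K27ac, which the choice of regions did not use, was listed at 484 of the 2078 doubly acetylated H3K27me3 peaks, 23.3% (21.5% to 25.2%). With acetylation scores of at least 100, those of H3K27ac included, it was 15.3%. Over all H3K27me3 peaks, at the listed scores, the share was 6.08%. It was 7.41% (6.02% to 9.08%) with H3K9ac only, 7.87% (6.18% to 9.98%) with H3K4ac only and 1.77% with neither. The counting interval of the doubly acetylated peaks lay above those of the single-mark groups, which overlapped each other. The groups were not matched for acetylation score. By width class the share was 25.3%, 26.0%, 21.4% and 17.7%, from the narrowest to the widest.

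Where present, H3K27ac sat at the same place as the other acetylations. Each of the 484 regions met 1 H3K27ac peak. It shared a base with both H3K9ac and H3K4ac inside the H3K27me3 peak in 472 (97.5%), and in 209 (43.2%) every H3K27ac base there was under both marks. It covered the whole H3K27me3 peak in 159 (32.9%). Regions with H3K27ac were narrower than those without, with a median of 1385 against 1619 bp, and had more of their length acetylated, with a median of 98.4% against 68.7% under H3K9ac or H3K4ac. Their median H3K9ac score was 164 against 99.5 and their H3K4ac score 178 against 99.6, whereas their H3K27me3 score was 217 against 244. Divided into 5 equal groups by H3K9ac score, the share with H3K27ac went from 9.38% in the lowest to 50.2% in the highest. Divided into 5 by H3K27me3 score it was 24.0%, 25.8%, 25.7%, 22.4% and 18.5%, from the lowest to the highest.

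H3K27ac was less frequent at these regions than at acetylated sites without H3K27me3. Of the H3K9ac peaks that touched an H3K4ac peak, 2063 lay on a doubly acetylated H3K27me3 peak and 23.7% of them met H3K27ac. Of the 20664 that touched no H3K27me3 peak, 40.3% did, a difference of −16.7 percentage points (95% Newcombe interval −18.6 to −14.7). It was −4.78 points with a score of at least 100 in every list and −5.78 points with that minimum on the acetylation lists. Both settings also cut the H3K27ac list, whose median score was 83.7, and the H3K9ac and H3K4ac lists. The part of either cut in the smaller difference was not tested. Seen from the H3K4ac peaks that touched H3K9ac, the shares were 23.9% and 40.8%, a difference of −16.9 points (−18.8 to −14.9). The acetylation peaks on H3K27me3 also had lower scores, with a median H3K9ac score of 107 against 159 and a median H3K4ac score of 107 against 191. The H3K9ac peaks that touched H3K4ac lay on one of these regions in 16.8% of cases in group 1 of the H3K9ac score and in 3.56% in group 10.

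The comparison was therefore repeated within the 10 groups of H3K9ac score. In group 10, H3K27ac was met by 74.7% of 95 H3K9ac peaks on these regions and by 89.8% of 2574 off H3K27me3, a difference of −15.1 points (−24.7 to −7.33). With a score of at least 100 in every list, the interval of this difference, −26.5 to 1.39, included 0. The median H3K9ac score in that group was 390 on and 400.2 off H3K27me3. In group 9 the shares were 56.2% and 72.2%, in group 8 43.3% and 57.5%, and in group 7 31.1% and 41.0%. The interval of the difference was below 0 in these 4 groups and included 0 in the other 6. In group 1 the shares were 7.29% and 5.69%. By groups of H3K4ac score, the interval was below 0 in groups 8, 9 and 10, included 0 in 5 groups and was above 0 in groups 1 and 2, where the differences were 3.81 and 6.76 points. In its group 10 the shares were 81.5% and 88.8%, a difference of −7.29 points (−16.5 to −0.547). Each grouping matched the score of 1 acetylation mark and not that of the other. So matched, the lower H3K27ac share was seen in the groups of highest score, whereas in the lower groups the interval included 0 or lay above it.

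**Figure D3:**
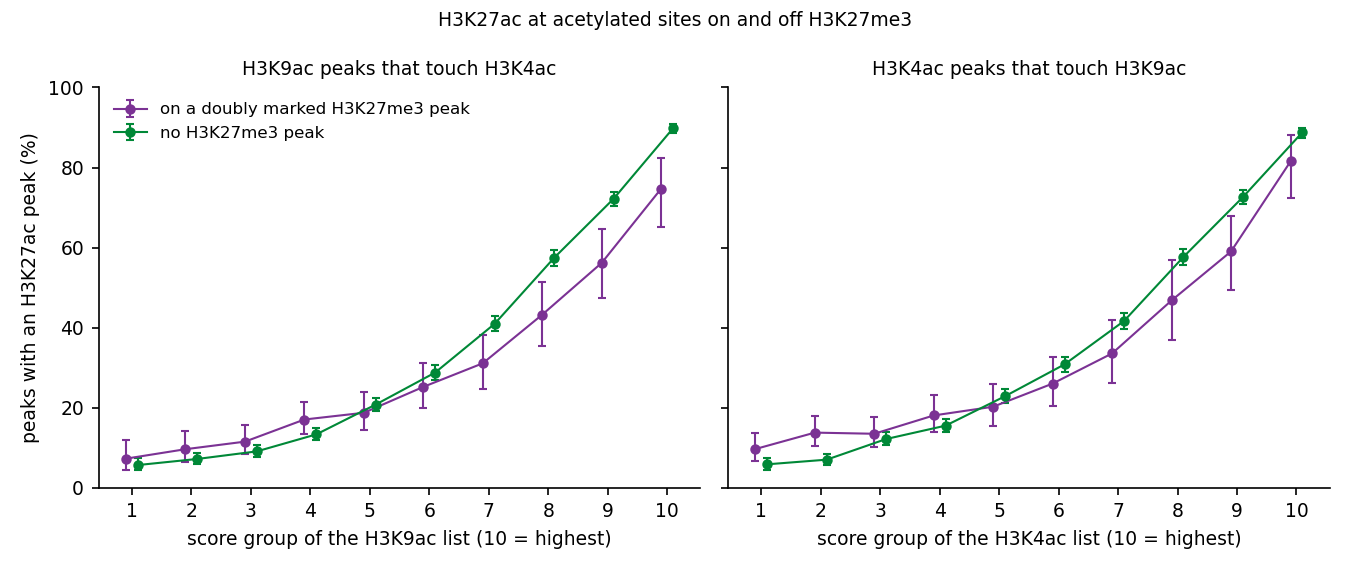
Share (%) of H3K9ac peaks that touch H3K4ac (left) and of H3K4ac peaks that touch H3K9ac (right) that meet an H3K27ac peak, by group of each list's score, for peaks on a doubly acetylated H3K27me3 peak and for peaks that touch no H3K27me3; bars are 95% Wilson intervals. In H3K9ac group 10 the shares were 74.7% on and 89.8% off H3K27me3, and in group 1 7.29% and 5.69%.

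The acetylation peaks on these regions were also wider than others of like score. In group 10 of the H3K9ac list, the median width was 1442 bp on and 1111.5 bp off H3K27me3, and in that of the H3K4ac list 1810.5 and 1431 bp. The median was larger on H3K27me3 in 9 of 10 groups for H3K9ac and in 10 of 10 for H3K4ac. Over all scores together the medians were close, 928 and 919 bp for H3K9ac and 1219 and 1203 bp for H3K4ac. A wider acetylation peak has more bases with which to meet an H3K27me3 peak, and the part of this in the difference was not tested.

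**Figure D4:**
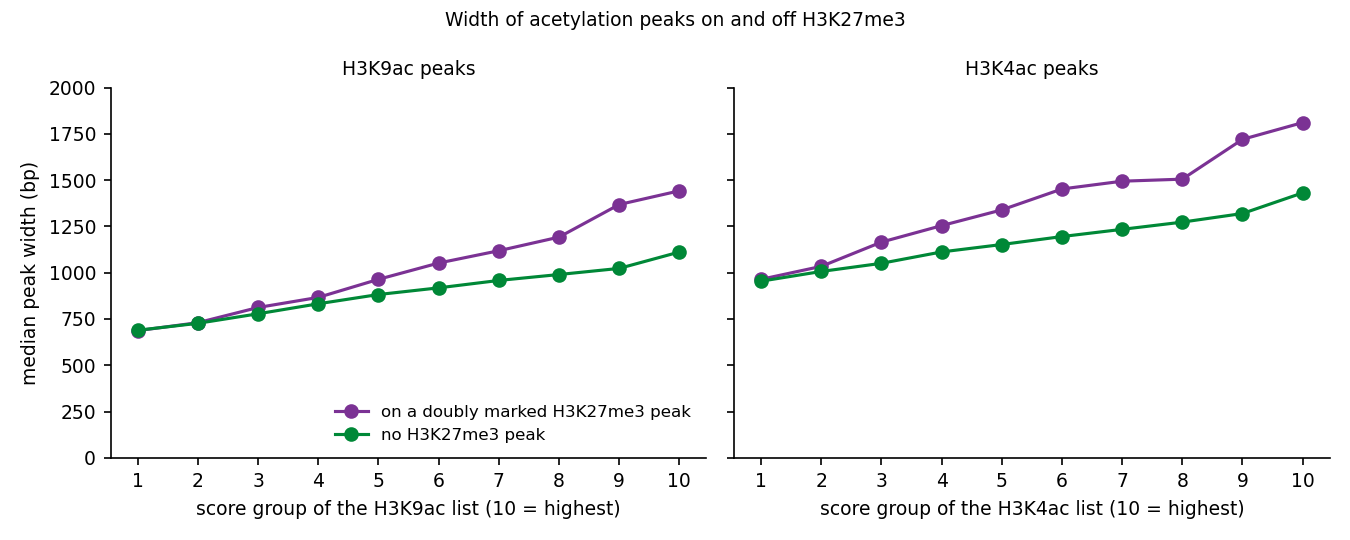
Median width (bp) of H3K9ac peaks (left) and H3K4ac peaks (right) that touch the other acetylation mark, by group of each list's score, on a doubly acetylated H3K27me3 peak and where no H3K27me3 was listed. The lines run together at low scores and part towards 1442 against 1111.5 bp for H3K9ac and 1810.5 against 1431 bp for H3K4ac in group 10.

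H3K9me1 and H3K9me3, methylations of lysine 9 that the study counts among repressive marks, were not used by the choice either. H3K9me1 was listed at 126 doubly acetylated H3K27me3 peaks, 6.06% (5.12% to 7.17%), where 2.56% of all H3K27me3 peaks met it. H3K9me3 was listed at 85, 4.09% (3.32% to 5.03%), where 2.69% of all H3K27me3 peaks met it. H3K9me1 was at 2.12% (1.43% to 3.13%) with H3K9ac only, 2.97% (1.99% to 4.41%) with H3K4ac only and 1.77% (1.52% to 2.07%) with neither. H3K9me3 was at 2.47% (1.71% to 3.55%), 3.74% (2.62% to 5.32%) and 2.31% (2.02% to 2.64%) in the same order, so that its interval with H3K4ac only overlapped that of the doubly acetylated peaks. Either methylation was found at 161 regions (7.75%), and 46 regions (2.21%) met a peak of every one of the 6 lists. Of those 46 regions, 27 were up to 1 kb wide. H3K27ac accompanied H3K9 methylation in 107 of the 161 regions.

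The share of H3K27me3 peaks that were doubly acetylated varied little between the 12 chromosomes. It ran from 14.6% on chromosomes 6 and 7 to 17.9% (15.6% to 20.4%) on chromosome 12, and the intervals overlapped. The number ran from 128 on chromosome 9 to 275 on chromosome 1, and the density from 4.94 per Mb on chromosome 3 to 6.41 per Mb on chromosome 11. The H3K27ac share of these regions varied more, from 15.7% on chromosome 4 to 31.4% on chromosome 12 and 34.4% (28.0% to 41.5%) on chromosome 11. Without the regions that met H3K9me1 or H3K9me3, it was 29.3% (22.8% to 36.6%) on chromosome 11 and 27.3% on chromosome 12. On the other chromosomes it was then 14.8% to 21.6%.

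Along the chromosomes, positions were scaled to the end of the last listed peak and divided into 10 parts of equal length. The share of H3K27me3 peaks with both marks was 21.3% (18.8% to 23.9%) in part 4 and 21.0% in part 5, and 12.1% (10.5% to 13.9%) in part 9 and 13.0% in part 10. It was 17.4% in part 1, so the ends were not alike. The central 20% of the chromosomes held 427 of these regions, 20.5% (18.9% to 22.3%), against 17.5% (16.9% to 18.2%) of all H3K27me3 peaks. The outer 10% at each end together held 413, 19.9% (18.2% to 21.6%), against 21.1% of all H3K27me3 peaks. This order turned when acetylation peaks needed a score of at least 100, where the share was 22.3% (19.7% to 25.1%), and the intervals included the share of the whole list in both cases.

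**Figure D5:**
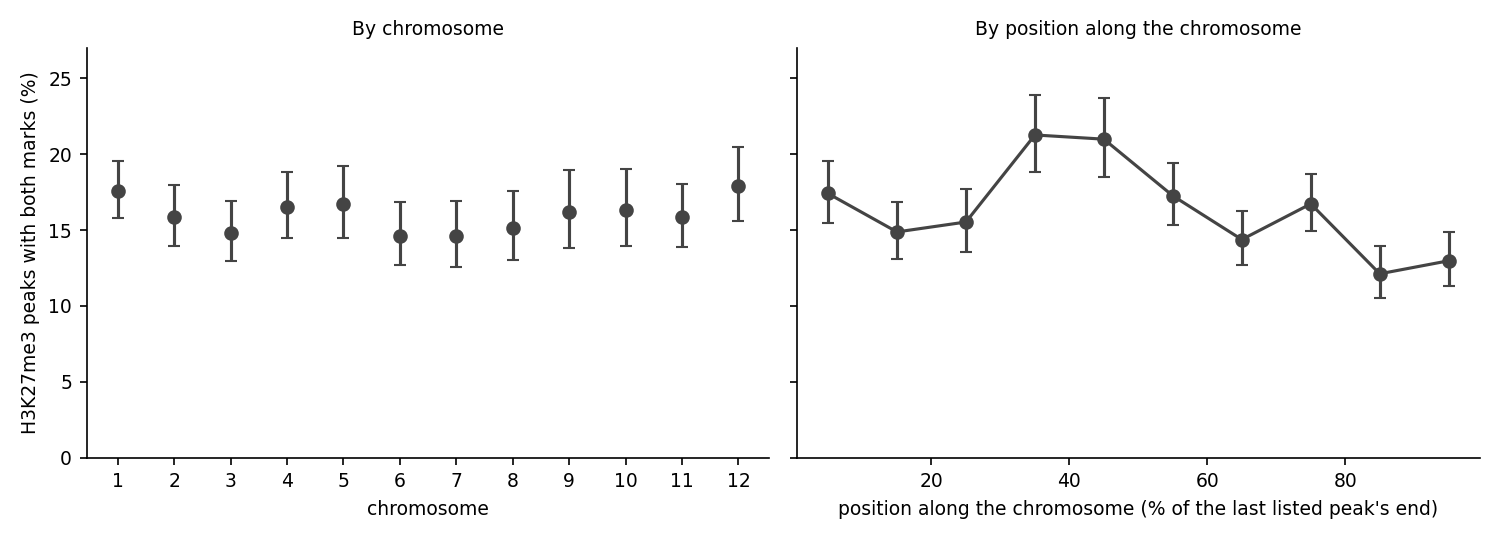
Share (%) of H3K27me3 peaks that met both H3K9ac and H3K4ac, by chromosome (left) and by position along the chromosome (right, % of the last listed peak's end); bars are 95% Wilson intervals. The 12 chromosomes lay between 14.6% and 17.9%, whereas the 10 parts along the chromosome ran from 12.1% to 21.3%.

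Doubly acetylated H3K27me3 peaks were spread over the genome, as was the whole H3K27me3 list, which left 1 of 380 windows of 1 Mb empty. Of these windows, 373 held at least 1 doubly acetylated peak, with a median of 5. The fullest window, chromosome 3 from 11000001 to 12000000, held 21 among 54 H3K27me3 peaks. The nearest other H3K27me3 peak lay a median of 6165 bp away (5733 to 6748 bp), against 4710.5 bp for the H3K27me3 peaks with neither mark. The gap was alike with H3K4ac only, 6110 bp (5334 to 7429 bp), and was 5302.5 bp (4817 to 5823 bp) with H3K9ac only. The H3K27me3 peaks directly before and after were not doubly acetylated in 1319 cases (63.5%), where 16% of all H3K27me3 peaks were doubly acetylated. Whether these regions stood alone more or less often than if placed without regard to neighbours was not tested.

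Some regions followed one another in long runs. Runs of 5 or more successive H3K27me3 peaks that were all doubly acetylated numbered 7 and held 44 regions. H3K27ac was listed at 39 of these 44 (88.6%), H3K9me1 at 34 (77.3%) and H3K9me3 at 18 (40.9%), and 39 were fully acetylated. Among the 715 regions in runs of 2 to 4 the shares were 25.6%, 7.27% and 4.34%, and among the 1319 that stood alone 19.9%, 3.03% and 2.73%. The longest run held 9 regions on chromosome 1 from 33514539 to 33578775, a span of 64.2 kb. All 9 met H3K27ac and H3K9me1, and 1 met H3K9me3. A run of 7 on chromosome 11 from 12065119 to 12282255 met H3K27ac and H3K9me1 throughout. A run of 5 on chromosome 3 from 11466992 to 11540317 was the exception, with H3K27ac at 1 region, H3K9me1 at 1 and a median covered share of 57.5%. The runs were noticed after their values were seen. The study names uniquely mapped reads for its plotted profiles of histone marks. How reads that fit several places in the genome were treated in calling these peaks is not given in the sources used here. Whether a control library was used is not given either. The part of such reads, or of a missing control, in these runs was not tested.

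Single regions give the range of forms. The highest H3K27me3 scores were 1575 on chromosome 9 from 17132035 to 17134903, 1489 on chromosome 1 from 15784649 to 15787225 and 1388 on chromosome 7 from 22176668 to 22179565. These regions were 2869, 2577 and 2898 bp wide and acetylated over 51.1%, 40.2% and 47.2% of their length. None met H3K27ac. Their H3K9ac scores were 160, 101 and 99.3, at percentiles 59.5, 36.8 and 36.1 of the H3K9ac list. Their H3K4ac percentiles were 32.6, 29.6 and 20.7. These 3 regions thus carried acetylation of a middle or lower rank, over 1036 to 1467 bp. That rank was usual for acetylation peaks on doubly acetylated regions. Among those that touched the other acetylation, the median percentile was 39.8 for H3K9ac and 33.1 for H3K4ac.

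The widest region, 8868 bp on chromosome 4 from 31900144 to 31909011, had an H3K27me3 score of 50.5 and 997 acetylated bases, 11.2% of its length. The next were 8773 bp on chromosome 1 from 38608299 to 38617071, with 19.9% covered, and 8505 bp on chromosome 3 from 31575475 to 31583979, with 24.1% covered and an H3K9me3 peak. In all 3 the acetylation lay inside both edges, and none met H3K27ac.

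A few regions ranked high in all 3 marks used for the choice. On chromosome 11 from 12307326 to 12308981, a region of 1656 bp had scores of 899 for H3K27me3, 524 for H3K9ac and 751 for H3K4ac, at percentiles 96.3, 98.4 and 99.4 of the lists. It was fully covered, met H3K27ac with a score of 823 and met H3K9me1. It belonged to 1 of the long runs described above, 5 regions on chromosome 11 from 12301622 to 12329024. On chromosome 4 from 1076 to 2087, a region of 1012 bp near the start of the chromosome's coordinates met all 6 marks. Another, of 2492 bp on chromosome 8 from 11563739 to 11566230, was of another form: acetylation lay over 1 edge and covered 15.3% of it, and only 93 bp were under both marks. The most bases under both marks were 4276 of 4459 bp on chromosome 4 from 9205861 to 9210319. Next came 3591 of 4688 bp, over 2 H3K9ac peaks, on chromosome 11 from 12277568 to 12282255. On chromosome 8 from 22324345 to 22327773, all 3429 bp were under both. All 3 regions met H3K27ac and H3K9me1, and the region on chromosome 11 was the last of the run of 7 described above.

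At the limit of the choice, the regions with the fewest shared bases met H3K9ac by 1 bp on chromosome 1 from 25934926 to 25936324, by 1 bp on chromosome 5 from 22028011 to 22030599 and by 4 bp on chromosome 1 from 34746577 to 34749225. They met H3K4ac by 285, 115 and 248 bp. Just outside, a peak on chromosome 1 from 38272655 to 38273244 was under H3K4ac over all its 590 bp and lay 1 base from an H3K9ac peak. Another on chromosome 2 from 23024299 to 23031951, 7653 bp wide, had 1265 bp under H3K9ac and lay 1 base from an H3K4ac peak. A peak on chromosome 6 from 23021709 to 23022896 had 20 bp under H3K4ac and lay 2 bases from H3K9ac. Few regions stood so close to the limit. The shared length with H3K9ac was under 100 bp in 75 regions (3.61%) and that with H3K4ac in 16 (0.77%). Of the 775 peaks with H3K4ac only, 204 (26.3%) had an H3K9ac peak within 1000 bp, and of the 1134 with H3K9ac only, 99 (8.73%) had an H3K4ac peak within that distance.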

How the data were processed

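ChIP-seq peak lists of 6 marks, 1 library each, were read as the authors deposited them. Each line gives a chromosome, a start, an end and a score, the deposited value of the peak caller for that peak in its own library. The peak names are those that MACS writes, and Bowtie is named in the submitters' processing notes. Aligner version and settings, genome build, peak calling settings and control library are not given in the sources used here; the study names a TIGR rice release for its gene annotation and RNA-seq, and none for these lists. Lines were read as BED intervals, so 1 was added to each start that is printed.

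Overlaps were computed in Python 3.11.15 with numpy 2.4.6 and pandas 2.3.3, and figures were drawn with matplotlib 3.10.9. The overlap arithmetic was tested on simulated data. Peaks counted as shared from 1 bp. Where several peaks of a mark met a region, the highest score was used. Widths were classed at 1000, 2000 and 3000 bp, and list scores were divided into 10 groups of equal size. Shares have 95% Wilson intervals, differences of shares Newcombe intervals and medians binomial order-statistic intervals. They cover counting error only, since sequenced reads are not independent molecules. Depth is unknown.

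Single regions were taken as 3 each by highest H3K27me3 score, width, highest lowest percentile over the H3K27me3, H3K9ac and H3K4ac lists, most bases under both marks, fewest shared bases, and smallest gap among the peaks left outside. The regions, classes and comparisons were chosen with earlier results of these data known. The alternatives were a score of at least 100 in every list or in the acetylation lists, a shared length of 50% or more of whichever peak was shorter, joining peaks closer than 200 bp, and leaving out regions with H3K9 methylation. Genes and sequences at the regions were not analysed here.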

Additional observations from a re-analysis of the deposited data

How the results depend on the processing

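Of 55 values recomputed, 26 moved beyond their counting interval or, for the number of regions, by over 1.5 times, and 29 did not. The differences kept their sign. With a score of at least 100 in every list, 692 regions were left, with a median width of 1681 bp, 898 bp under both marks, centred acetylation in 74.7%, the acetylation marks sharing a base in 99.6%, H3K27ac at 15.9%, 22.4% in the outer chromosome ends and an H3K27ac difference from H3K9ac peaks off H3K27me3 of −4.78 points. With that minimum on the acetylation lists only, the values were 898 regions, 1411 bp, 838.5 bp, 78.8%, 99.7%, 15.3%, 22.3% and −5.78 points, with a covered share of 87.3% and H3K9 methylation at 9.69%. Asking for a shared length of 50% of whichever peak was shorter gave a covered share of 80.1%, centred acetylation in 86.9% and 799 bp under both marks. Joining peaks closer than 200 bp gave a width of 1651.5 bp and a covered share of 71.6%. Without regions that met H3K9 methylation, H3K27ac was at 19.7% and the difference was −20.4 points. The midpoint of the H3K9ac peak itself was central in 61.6%. The cause of these shifts was not tested. In group 10 of the H3K9ac score, the H3K27ac difference kept its direction under all 5 alternatives (−19.6 to −11.8 points), but with a score of at least 100 in every list its interval (−26.5 to 1.39) included 0. The length under both marks, the H3K27ac differences and the H3K9ac midpoint were added after seeing the data. No paired analysis was possible because each mark has 1 library, and none could be left out. The number of regions and the H3K27ac share rest on the peak callers' thresholds and on an unknown depth.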
